A study of Saccharomyces cerevisiae with 96 samples.

Results

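Expression of 10 budding yeast genes linked to glucose repression was followed in wild type and evolved strains growing on glucose and on xylulose. The genes were chosen by name from the 6701 genes measured, and their xylulose/glucose ratios were known when they were chosen. They are SUC2 (YIL162W), JEN1 (YKL217W), ADY2 (YCR010C), DLD1 (YDL174C) and CYB2 (YML054C), which code for enzymes and transporters, the repressors MIG1 (YGL035C) and MIG2 (YGL209W), and the activators HAP4 (YKL109W), CAT8 (YMR280C) and ADR1 (YDR216W). The xylulose/glucose ratios are therefore given as a description, in which limma calls are counted and nothing is read from them, and the tests that are read concern wild type against evolved strains. SUC2 and JEN1 drew attention through their ratios in the evolved strains, whose columns also enter those tests.

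RNA was sequenced from 12 Saccharomyces cerevisiae strains before and after evolution, in logarithmic growth on YP medium with glucose (YPD) or with xylulose, giving 4 groups of 12 strains. The strains, numbered 1 to 12 in this order, were YPS1009, T73, T7, Y12, YJM269, PW5, CLIB215, CLIB324, CBS7960, EC1118, BY4743 and SK1. Evolution meant serial dilution on YP-xylulose for about 300 generations, and each evolved sample was a whole population and not a clone. The xylulose medium was made from xylose by an isomerase and so also held xylose in both groups grown on it. According to the methods, each of the 48 columns is the mean of 2 repeats. In 17 columns, unevenly spread over the 4 groups, nearly all low values lay on whole multiples of a single step. A mean of 2 separately scaled libraries would not generally give this, so how repeats were combined, or whether both entered, is not known. Single repeats are not analysed here, so all errors are over the 12 strains. Values are reads per 1000000 (RPM), with a blank under 10 RPM that was set to this floor. In those 17 columns the step gave the depth, which ran from 253336 to 1114086 counted reads. Its median was 680944, where the floor stands for 6.81 reads. Levels are compared between columns of the same gene, since they were not set against gene length.

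The strain numbers of 8 evolved columns went against the data. Over 59 genes with strain-typical levels, none of them a member, evolved columns 5 to 8 matched wild type columns 9 to 12 and evolved columns 9 to 12 matched wild type columns 5 to 8. In these 8 columns the mean correlation was -0.09 with the wild type column of the same number and 0.69 with the exchanged number. For evolved columns 1 to 4 their own number gave a mean of 0.61. The pairing leaves the mean of an evolved/wild type difference as it is and changes its error. Such differences are therefore given with the numbers as labelled and again with the evolved numbers 5 to 8 exchanged with 9 to 12.

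When glucose is plentiful, yeast switches off genes for other carbon sources. The zinc finger proteins Mig1 and Mig2 bind GC-rich sites in front of these genes and recruit the Tup1-Cyc8 corepressor, until the kinase Snf1, active when glucose is scarce, phosphorylates Mig1 and it leaves the nucleus. Cat8 and Adr1 then activate genes for growth on lactate, acetate, ethanol and fatty acids, and Hap4, the regulated subunit of the Hap2/3/4/5 complex, activates genes of respiration.

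The DNA in front of the 5 enzyme and transporter genes is shown first, because it holds words like those that these regulators are known to bind. The words were searched on both strands in the 800 bases before the start codon, in the S288c genome (R64). For Mig1 they were GCGGGG or GTGGGG, and CCGGGG or CTGGGG. For Cat8 the word was a loose form of the carbon source response element (CC, any 2 bases, T, any 3 bases, CCG). A match to it need not be a site that Cat8 binds. At least 1 Mig1 word was present in 9 of the 10 members, all but ADR1, and in 35.8% of 6016 genes. The Cat8 word was present in JEN1, ADY2, DLD1 and HAP4, and in 11.7% of genes. The Adr1 words TTGGGG and TTGGAG were found in 6 of 10 members and in 43.5% of genes. CCAAT, bound by the Hap complex, was found in 9 of 10 and in 81.5%. A match is only a run of letters, some matches overlap (HAP4 holds Mig1 words on both strands of the same bases), and the stretches shown were picked after the matches were seen. Capitals mark the Mig1 words and, in JEN1, ADY2 and DLD1, also the Cat8 word, on either strand.
SUC2: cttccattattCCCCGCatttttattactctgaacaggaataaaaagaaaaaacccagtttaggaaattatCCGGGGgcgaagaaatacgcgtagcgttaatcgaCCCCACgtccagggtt
JEN1: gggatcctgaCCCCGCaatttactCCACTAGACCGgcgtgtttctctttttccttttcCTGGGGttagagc
ADY2: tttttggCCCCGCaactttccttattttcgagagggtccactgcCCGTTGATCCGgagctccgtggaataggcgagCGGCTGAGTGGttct
DLD1: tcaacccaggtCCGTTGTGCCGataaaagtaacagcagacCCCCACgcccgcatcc
CYB2: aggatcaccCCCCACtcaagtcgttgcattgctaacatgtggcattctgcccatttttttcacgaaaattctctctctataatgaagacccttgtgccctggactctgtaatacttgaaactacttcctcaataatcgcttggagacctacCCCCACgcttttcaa
Each reads 5′ to 3′ towards its gene. The SUC2 stretch is chrIX:36875-36995 (plus strand), with 3 Mig1 words. The JEN1 stretch is chrXI:21564-21634 (plus strand), with a Cat8 word between a pair of Mig1 words. Those of ADY2 (chrIII:133589-133679), DLD1 (chrIV:147829-147884) and CYB2 (chrXIII:167568-167733) lie on the minus strand.

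SUC2, the secreted invertase that splits sucrose, was higher on xylulose than on glucose in each of the 12 strains, before and after evolution. On glucose the wild type columns ran from 10.5 to 476 RPM with a median of 72.95, and the evolved columns from a blank to 279 with a median of 66.1. On xylulose the wild type columns ran from 347 to 5802 RPM with a median of 1275, and the evolved columns from 609 to 4860 with a median of 1813. The media overlapped in the wild type, where strain 5 on glucose exceeded strains 1 and 3 on xylulose, and did not overlap after evolution. The mean xylulose/glucose log2 ratio was 3.84 ± 1.93 in the wild type and 4.45 ± 1.74 after evolution (SD, n = 12). SUC2 also differed widely between strains. The SD of its log2 level on xylulose was 1.31 in the wild type, above 98.7% of the 4146 genes with a value in all 12 columns, whose median SD was 0.45. Reads from further SUC genes, which some strains are known to carry at chromosome ends, could not be told apart from SUC2, the one SUC gene of the reference.

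JEN1, the lactate and pyruvate transporter of the plasma membrane, gave levels on the 2 media that did not overlap over all 48 columns. The share of all genes that did so over the 48 columns was not counted. Shares within the wild type and within the evolved columns are given further on. Wild type columns on glucose ran from a blank in EC1118 to 247.5 RPM in Y12 with a median of 37.6, and on xylulose from 282.5 to 1128 with a median of 571. Evolved columns ran from 19.9 to 84.4 RPM with a median of 46.0 on glucose, and from 423 to 2139 with a median of 817 on xylulose. The lowest value on xylulose was thus only just above the highest on glucose, which came from a single wild type column. That column, Y12, was also the highest wild type column on glucose for DLD1, CYB2 and ADR1 (256, 218 and 59.6 RPM), but not for the remaining members. It was likewise the highest for the listed genes of gluconeogenesis and acetate and ethanol use, except MDH2, YAT2 and CRC1. Its part in the spreads on glucose was not tested. The mean log2 ratio was 3.97 ± 1.34 in the wild type and 4.22 ± 0.98 after evolution (SD, n = 12).

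DLD1 and CYB2 code for the mitochondrial D- and L-lactate dehydrogenases, which pass electrons from lactate to cytochrome c. DLD1 ran from 108 to 256 RPM on glucose and from 380 to 1596 on xylulose in the wild type, with medians of 138 and 530. After evolution it ran from 72.0 to 287 on glucose and from 400 to 1950 on xylulose, with medians of 120 and 749. Like JEN1, it showed no overlap of the media in the 48 columns, for which the share of all genes was not counted. The log2 ratio of DLD1 was 2.07 ± 0.76 in the wild type and 2.87 ± 0.49 after evolution (SD, n = 12).

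CYB2 ran from 30.02 to 218 RPM on glucose and from 176 to 1312 on xylulose in the wild type, with medians of 105 and 801. After evolution it ran from 15.3 to 258 on glucose and from 106 to 2039 on xylulose, with medians of 57.8 and 994. The media overlapped because a few columns were low on xylulose, namely BY4743 in the wild type at 176 RPM and evolved columns 7 and 12 at 106 and 122 RPM. Evolved column 7 is the one that matched wild type 11, BY4743, in the strain check. Evolved column 12 matched wild type 8, CLIB324, where CYB2 stood at 926 RPM on xylulose. With the low columns 7 and 12 the SD of the log2 level on xylulose after evolution was 1.43, above 99.4% of 4493 genes. The log2 ratio of CYB2 was 2.85 ± 1.23 in the wild type and 3.54 ± 1.15 after evolution (SD, n = 12).

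ADY2, the acetate transporter, went against the label of a glucose-repressed gene. It had a value in 16 of 48 columns and a mean of 9.6 RPM, which left it out of the tests. On glucose it had a value in 7 wild type columns, up to 31.0 RPM, and in 4 evolved columns, up to 27.9. On xylulose it had a value in 3 wild type columns and 2 evolved columns. The one high value was 139 RPM in wild type 1 (YPS1009) on xylulose, where the evolved column was blank.

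**Figure D1:**
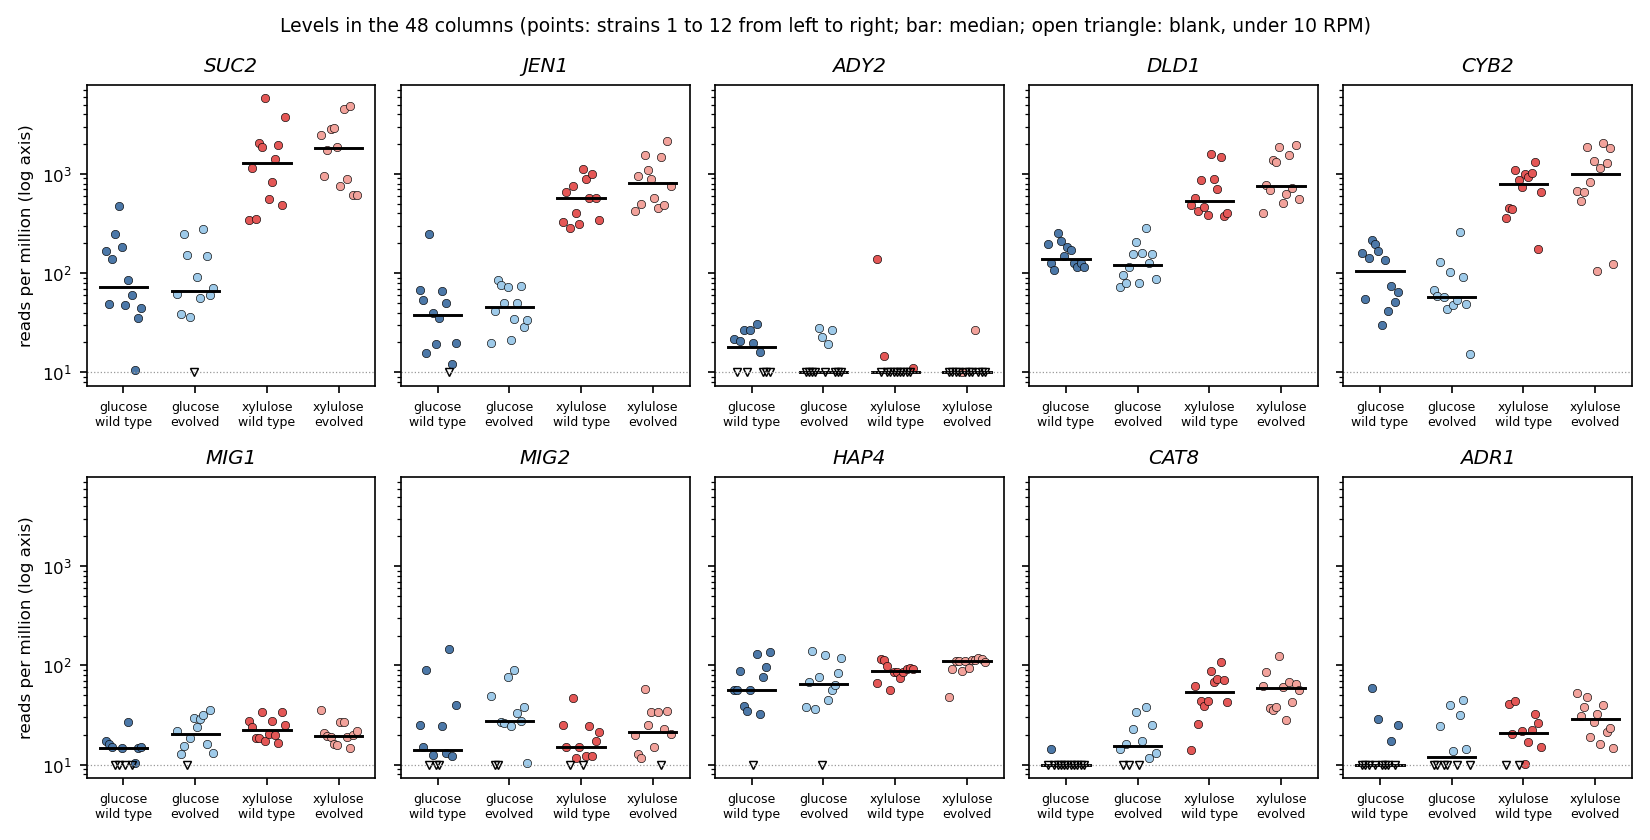
Level of each of the 10 members in RPM (log axis) in the 4 groups, with 1 point per strain, a bar at the median and open triangles for blanks under 10 RPM. SUC2, JEN1, DLD1 and CYB2 lie higher on xylulose, as does CAT8 among the regulators, while ADY2 is mostly blank.

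Among the regulators, CAT8, the zinc cluster activator of gluconeogenic genes, differed most between the media. In the wild type on glucose it had a value in 1 of 12 columns, at 14.5 RPM. After evolution it had a value in 9 of 12 columns on glucose, up to 37.8 RPM with a median of 15.4. On xylulose it had a value in all 24 columns, from 13.9 to 109 RPM in the wild type and from 27.9 to 123 after evolution, with medians of 53.3 and 58.9. Its log2 ratio, a lower bound where glucose columns were blank, was 2.28 ± 0.81 in the wild type and 1.69 ± 0.75 after evolution (SD, n = 12).

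For CAT8, as for the other regulators, the ranges on the 2 media overlapped, before and after evolution. MIG1 ran from a blank to 26.9 RPM on glucose and from 16.4 to 34.1 on xylulose in the wild type, with medians of 14.6 and 22.2 and a higher value on xylulose in 12 of 12 strains. After evolution its medians were 20.2 RPM on glucose and 19.6 on xylulose, and it was higher on xylulose in 6 of 12 strains. MIG2, a related repressor of SUC2 and other genes, had medians of 14.1 and 27.5 RPM on glucose in the wild type and evolved columns. On xylulose the MIG2 medians were 15.0 and 21.5 RPM. Its highest values were on glucose, at 147 RPM in wild type 10 and 90.8 in evolved 8.

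HAP4 varied less between strains on xylulose than on glucose, as did genes as a whole. On xylulose it ran from 56.0 to 116 RPM in the wild type and from 48.6 to 118 after evolution, with medians of 88.3 and 110. On glucose it ran from a blank to 137 RPM and from a blank to 139, with medians of 56.4 and 65.1. The SD of its log2 level on xylulose was 0.30 in the wild type and 0.36 after evolution. Genes with a value in all 12 columns had median SDs of 0.45 and 0.38 there, and of 0.63 and 0.56 on glucose. On glucose the SD of HAP4 was 1.04 and 1.03, with 1 blank at the floor in each group. ADR1, the activator of ethanol and fatty acid use, had a value in 4 of 12 wild type columns and 6 of 12 evolved columns on glucose. On xylulose it had one in 10 and in 12 columns, with medians of 21.0 and 29.1 RPM. The medians of MIG1, MIG2 and ADR1 thus lay close to the floor, where values rest on few reads.

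By the limma threshold described further on, 6 of the 9 members above the filter were called higher on xylulose in the wild type (SUC2, JEN1, DLD1, CYB2, MIG1 and CAT8), beside 30.4% of the 5129 genes. After evolution 7 of 9 were, with HAP4 and ADR1 in place of MIG1, beside 24.1% of genes. These 3 calls depended on the settings. That of MIG1 in the wild type (adjusted p = 0.0758) and that of ADR1 after evolution (0.22, adjusted p = 0.627) were lost in limma with blanks left missing, and the latter also without strain 4 (adjusted p = 0.0508). That of HAP4 after evolution was lost in 6 of 24 settings, among them median-of-ratios scaling (adjusted p = 0.055) and leaving out strain 4 or strain 8. In the wild type ADR1 passed with pseudocounts of 1 and 10, and HAP4 without strain 8 or without strain 12. Every value on xylulose lay above every value on glucose for JEN1 and DLD1 in the wild type, beside 2.59% of genes, and for SUC2, JEN1 and DLD1 after evolution, beside 3.55%. Since these ratios were known when the genes were chosen, nothing is read from the counts. Over the 5129 genes together, this ratio had a median of 0.31 before and 0.08 after evolution, which median-of-ratios scaling moved to 0.13 and -0.01. That scaling turned the MIG1 ratio after evolution from 0.05 to -0.04.

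Whether evolution changed the level of the members was tested with limma on log2 differences within each strain number, over 5129 genes with Benjamini-Hochberg adjustment. With the numbers as labelled, 0 of 9 members passed an adjusted p of 0.05 on xylulose, where 0.858% of all genes did, and 1 had an unadjusted p under 0.05 (JEN1). On glucose 0 of 9 passed, beside 2.22% of genes, and 2 had an unadjusted p under 0.05 (MIG1 and CAT8). For the change of ratio, that is of xylulose/glucose from wild type to evolved, 0 of 9 passed, beside 5.44% of genes, and 2 had an unadjusted p under 0.05 (DLD1 and MIG1). The share of all genes at an unadjusted p under 0.05 was not counted. Nothing is therefore read from the unadjusted counts, here or for the gene lists below. With the evolved numbers exchanged, 4.58%, 3.33% and 8.85% of genes passed, and 1, 0 and 1 members did. The wide intervals leave room for sizeable changes, as for SUC2 on xylulose, whose log2 difference of 0.46 had a 95% interval from -0.42 to 1.34.

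JEN1 on xylulose was 0.60 higher after evolution on the log2 scale (standard error 0.27, limma adjusted p = 0.35 with the labelled numbers), and higher in 9 of 12 strains. The wild type and evolved columns overlapped widely. With the numbers exchanged the same difference had a standard error of 0.15 and a limma adjusted p of 0.0344, and JEN1 was higher in 10 of 12 strains. Over 24 alternative settings its adjusted p ran from 0.0243 to 0.532. That call was lost, at an adjusted p of 0.096, when the variance trend ran over the mean difference of each gene, the first version of the fit that was run. On glucose the JEN1 difference was 0.35 (standard error 0.39, limma adjusted p = 0.703).

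The DLD1 differences after evolution were 0.51 on xylulose and -0.30 on glucose (standard errors 0.31 and 0.23, limma adjusted p = 0.491 and 0.546). Its xylulose/glucose ratio was 0.80 larger on the log2 scale (standard error 0.27, limma adjusted p = 0.0781), in 8 of 12 strains. With the numbers exchanged it was larger in 11 of 12 strains, with a standard error of 0.19 and a limma adjusted p of 0.0101. It also passed without strain 10 under the labelled numbers, at 0.98 and an adjusted p of 0.0211. Over 24 alternative settings the adjusted p ran from 0.00429 to 0.197. With exchanged numbers and the variance trend over the mean difference it was 0.0599.

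SUC2 and CYB2 had the largest standard errors of the 9 members on xylulose under the labelled numbers. SUC2 on xylulose was highest in wild type 6 (PW5) at 5802 RPM and wild type 12 (SK1) at 3793, and among the evolved columns in 10 at 4860 and 8 at 4466, which are the exchanged numbers of 6 and 12. Under the labelled numbers its per-strain log2 differences on xylulose ran from -2.64 to 2.83, with a standard error of 0.41 that fell to 0.28 after the exchange. For CYB2 on xylulose they ran from -3.24 to 3.36, around a mean of 0.19 with a standard error of 0.42, which was 0.28 after the exchange. Neither gene passed in any of the 3 tests under either pairing. The lowest adjusted p among these was 0.091, for the change of the CYB2 ratio of 0.69 with exchanged numbers.

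**Figure D2:**
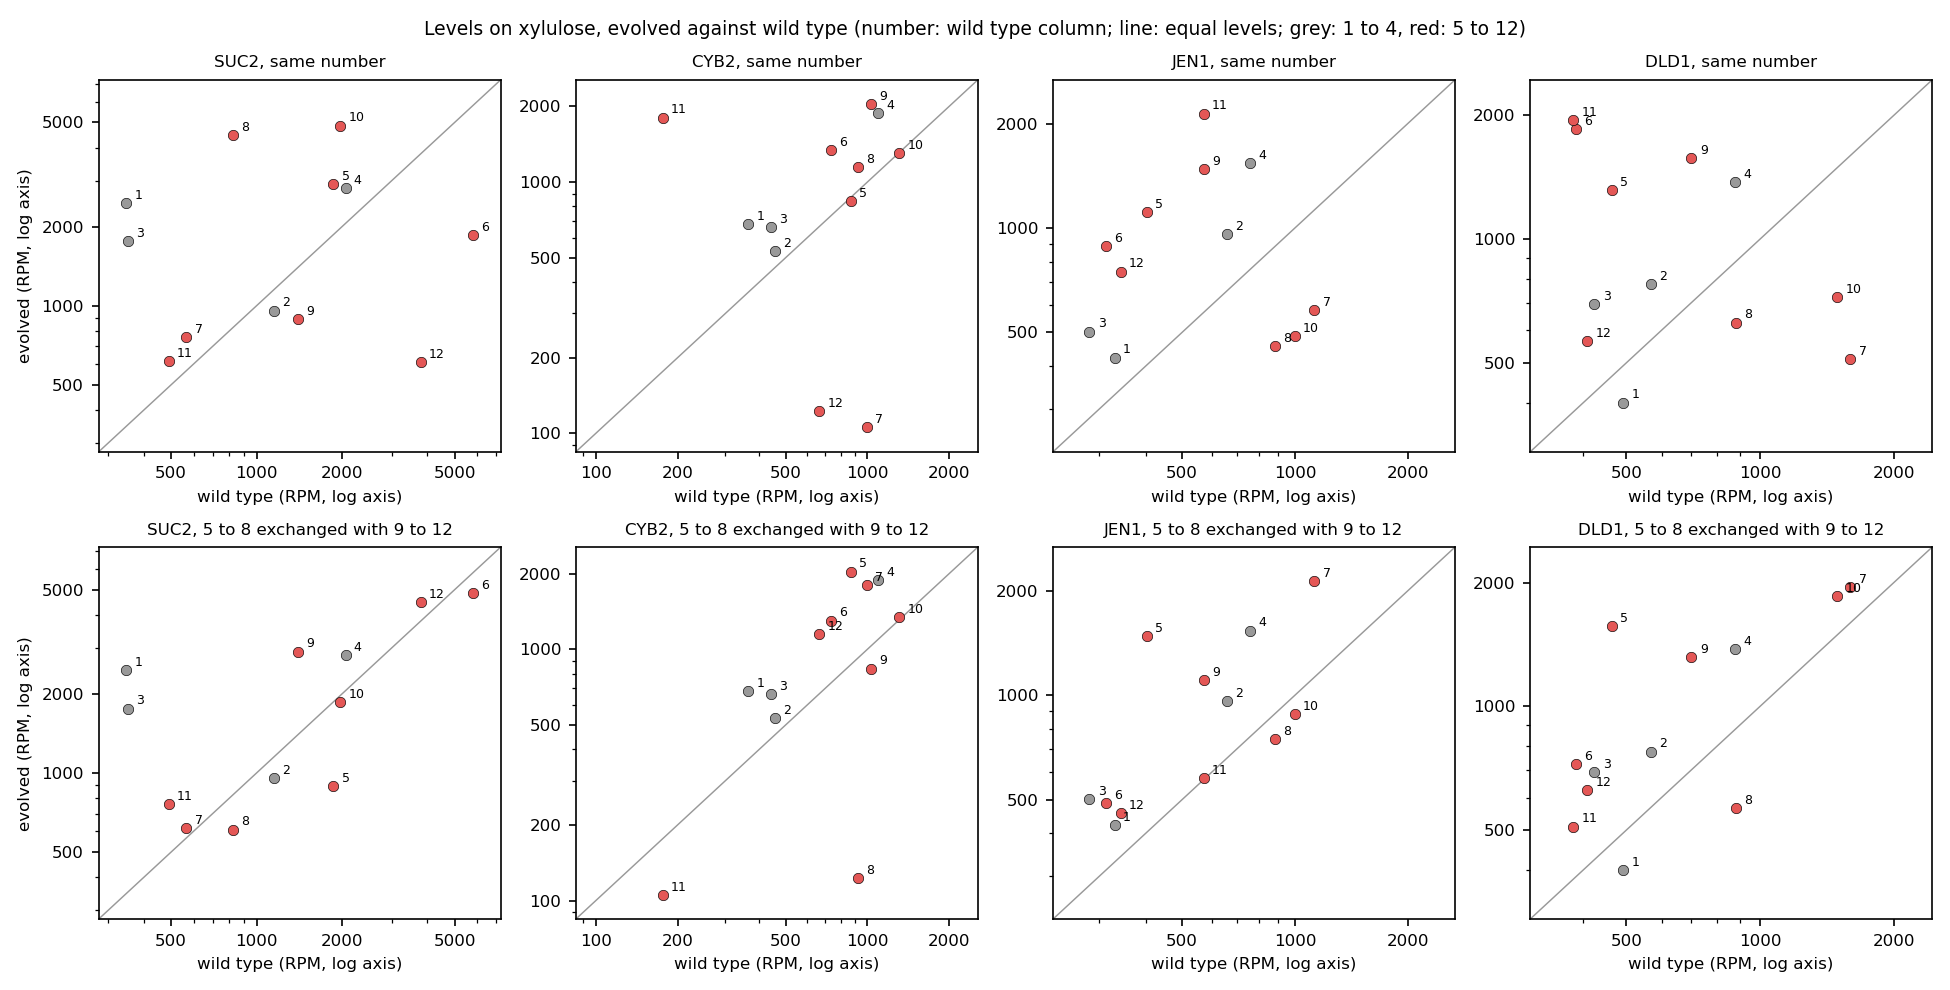
Level on xylulose of SUC2, CYB2, JEN1 and DLD1 in the evolved column against the wild type column, in RPM on log axes, paired by the labelled number (top) or with 5 to 8 exchanged with 9 to 12 (bottom). After the exchange SUC2 of wild type 6 and 12 pairs with the 2 highest evolved columns and CYB2 of wild type 11 with the lowest, while CYB2 of wild type 8 pairs with the other low column.

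Among the regulators, CAT8 on glucose was 0.69 higher after evolution (standard error 0.24, limma adjusted p = 0.138), with 9 strains higher, 1 lower and the rest blank in both. CAT8 was blank in 11 of 12 wild type columns on glucose, and this value depends on the floor, running from 0.52 to 2.96 over the alternative settings. MIG1 on glucose was 0.56 higher (standard error 0.25, limma adjusted p = 0.251), with a range from 0.315 to 1.395 over the settings. Neither difference passed the threshold with the numbers exchanged, at adjusted p of 0.104 and 0.255. The MIG1 xylulose/glucose ratio differed by -0.71 (standard error 0.31, limma adjusted p = 0.181), with a range from -1.54 to -0.38. On glucose the wild type columns held values for 3935 to 5021 genes and the evolved columns for 4584 to 5342, and the part of this in these results was not tested. For MIG2, HAP4 and ADR1 the smallest adjusted p under the labelled numbers was 0.384, for ADR1 on xylulose at 0.49.

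**Figure D3:**
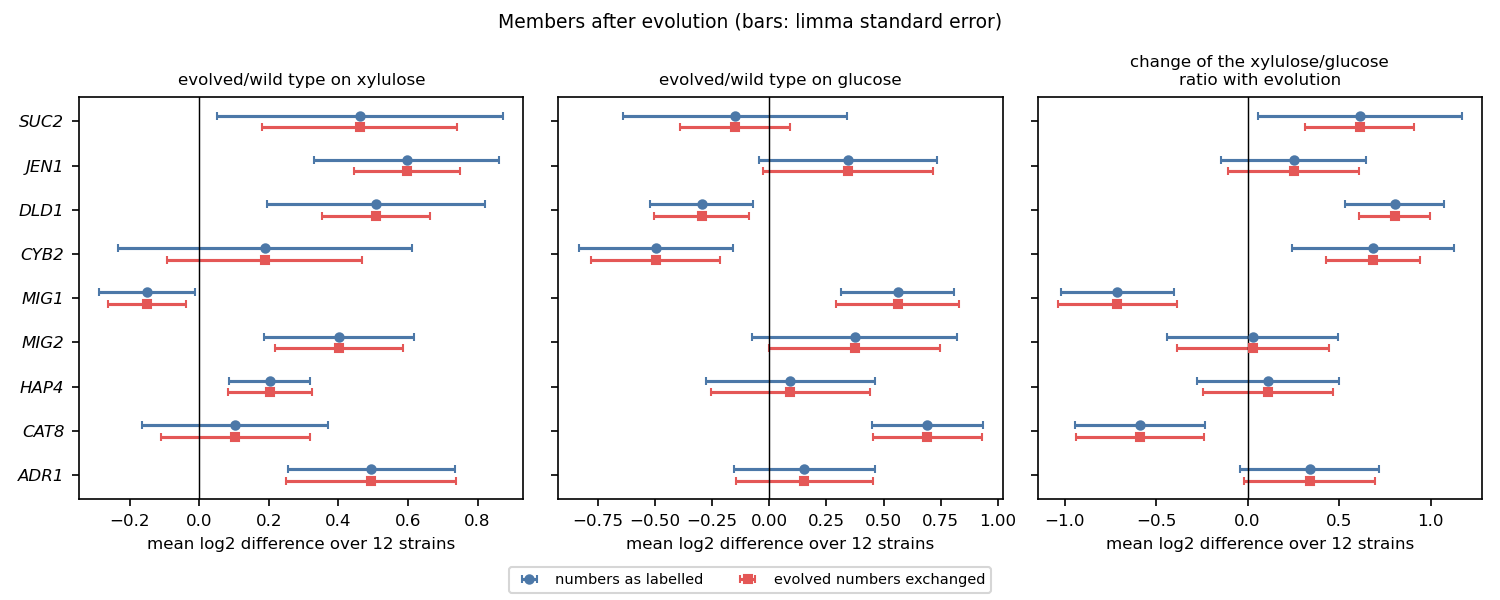
Mean log2 difference of the 9 tested members over the 12 strains in the 3 comparisons with evolution, with limma standard errors, for labelled (blue circles) and exchanged (red squares) numbers. The means are identical under both pairings, and the errors of SUC2, JEN1, DLD1 and CYB2 on xylulose are smaller after the exchange.

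The glucose columns of the evolved strains stood apart in the genes of phosphate starvation. All 8 of the listed genes were higher there than in the wild type, with a median log2 difference of 4.04. The phosphate transporter PHO84 had a median of 17.5 RPM in the wild type and 492 after evolution. Beside these values stand every evolved/wild type difference on glucose and every change of ratio given here. Their part in the member results was not tested. The median of all genes also moved, by 0.17 on glucose, -0.20 in the change of ratio and -0.02 on xylulose.

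Of 23 listed genes of glucose signalling 21 were tested, and 0 passed in limma for evolved/wild type on xylulose or on glucose under the labelled numbers, with 3 and 2 at an unadjusted p under 0.05. For the change of ratio 2 of 21 had an unadjusted p under 0.05 and 1 passed, a count near the 5.44% of all genes. The gene that passed was NRG2, a repressor that acts with Tup1-Cyc8 in glucose repression. Its median was 75.2 RPM on glucose and 34.1 on xylulose in the wild type, and 141 and 23.8 after evolution. The ratio changed by -1.34 (standard error 0.33, limma adjusted p = 0.017), in 11 of 12 strains. HXK2, the hexokinase needed for repression by glucose and singled out here after its values were seen, had a median of 390 RPM in the wild type and 675 after evolution on xylulose. Its difference of 0.76 passed only with exchanged numbers (limma adjusted p = 0.0125, against 0.3 with the labelled numbers). With exchanged numbers 1 of the 21 was called higher on xylulose and 1 on glucose, beside 4.58% and 3.33% of all genes called in either direction. For the change of ratio 1 was called higher and 1 lower, beside 8.85% of all genes.

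Of 13 genes for gluconeogenesis and the use of acetate and ethanol, many of them known targets of Cat8 and Adr1, 13 were called higher on xylulose in the wild type and 11 after evolution, with median log2 ratios of 2.02 and 2.13, beside 30.4% and 24.1% of all genes called higher and medians of 0.31 and 0.08. Under the labelled numbers 0 passed in limma for evolved/wild type on xylulose or on glucose, with 1 and 1 at an unadjusted p under 0.05. For the change of ratio 4 of 13 had an unadjusted p under 0.05, a cut for which the share of all genes was not counted. The list median was -0.44 beside -0.20 over all genes. In that comparison 1 of 13 passed, beside 5.44% of all genes, namely YAT2, a carnitine acetyltransferase, at -1.22 (standard error 0.35, limma adjusted p = 0.0428). Its median on xylulose was 144 RPM before and 72.2 after evolution. Of 10 tested genes for beta-oxidation and glycerol use, the same 6 were called higher on xylulose before and after evolution (CTA1, FAA2, POX1, GUT1, GUT2 and PEX11), beside 30.4% and 24.1% of all genes, and after evolution SPS19 was called lower, at -0.87. Of these 10, 0 had an unadjusted p under 0.05 for evolved/wild type on xylulose, 2 on glucose and 2 for the change of ratio. For evolved/wild type on glucose 1 of 10 passed, beside 2.22% of all genes, and for the change of ratio 1 of 10, beside 5.44%, in both cases SPS19. This gene, for a peroxisomal dienoyl-CoA reductase, was 1.13 higher after evolution on glucose (standard error 0.27, limma adjusted p = 0.0226), and its ratio changed by -1.35 (adjusted p = 0.0273). It was blank in 9 of 12 wild type columns on glucose, so these 2 values depend on the floor. Among 6 other activators, 5 genes of other sugars, and 6 relatives and partners of the member enzymes, 0 passed in limma in the 3 comparisons with evolution under the labelled numbers. At an unadjusted p under 0.05 there were 1, 1 and 1 on xylulose, 0, 1 and 0 on glucose, and 0, 2 and 0 for the change of ratio. With exchanged numbers 1 of the 5 genes of other sugars was called higher for the change of ratio, beside 8.85% of all genes called in either direction.

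In all, 4459 tested genes, these members among them, had a value in at least 40 columns. Each such member was compared with the rest by the Pearson correlation of log2 levels over the 48 columns. These columns share media and libraries, so the values only describe likeness. SUC2 was most like COX17, QCR8 and MAM33, at 0.92, 0.90 and 0.89, which code for a copper chaperone of cytochrome oxidase, a subunit of the bc1 complex and a mitochondrial matrix protein. JEN1 was most like IDP2 at 0.94, DLD1 at 0.93 and AGX1 at 0.92. DLD1 was most like ODC1, JEN1 and IDP2, at 0.93, 0.93 and 0.92, and CYB2 most like IDP2, QCR6 and MHR1, at 0.91, 0.90 and 0.90. IDP2 codes for the cytosolic isocitrate dehydrogenase, AGX1 for alanine glyoxylate aminotransferase and ODC1 for a mitochondrial carrier of dicarboxylates. For the regulators the highest values were lower. They were 0.62 for MIG1 with CIS1, followed by HOS4 and YNG1, and 0.71 for HAP4 with SYC1, followed by SGF73 and MTM1. MIG2 was most like NUP49 at 0.52, SCL1 and ARI1, whose systematic names (YGL172W, YGL011C and YGL157W) place them on the left arm of chromosome VII, as does that of MIG2. MIG1 (YGL035C) lies on the same arm, and its correlation with MIG2 was 0.18. Any part of the shared location was not tested.

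Within the xylulose columns JEN1 and DLD1 varied together across strains, with a correlation of 0.88 in the wild type and 0.85 after evolution (n = 12 each, a description). Within the glucose columns it was 0.77 and 0.33. For SUC2 and JEN1 the correlation was -0.08 and -0.44 on xylulose, and on glucose 0.53 before and 0.16 after evolution.

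Regulators and their known targets were set against each other across the 12 strains on xylulose, in 10 relations with a permutation test and Benjamini-Hochberg adjustment. CAT8 and JEN1 were related in the wild type, with Pearson r = 0.78 (permutation p = 0.00166, adjusted p = 0.0166, n = 12) and Spearman rho = 0.76 (permutation p = 0.00576, adjusted p = 0.0576). Both genes were highest in strains 7 and 10 and low in strains 1 and 3, and JEN1 was also low in strain 6. Without the 2 strains farthest from the median of CAT8 r was 0.80, with an adjusted p of 0.0665, and leaving out strain 10 gave 0.74 and 0.0691. After evolution r was 0.25 (permutation adjusted p = 0.695) and rho 0.27, and the difference between the groups was not tested. MIG1 and MIG2 with SUC2, and HAP4 with CYB2 and DLD1, gave r from -0.31 to 0.49 in the 2 groups, with adjusted p of 0.375 or more. The 4 relations with ADY2 could not be set up, since it had too few values.

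**Figure D4:**
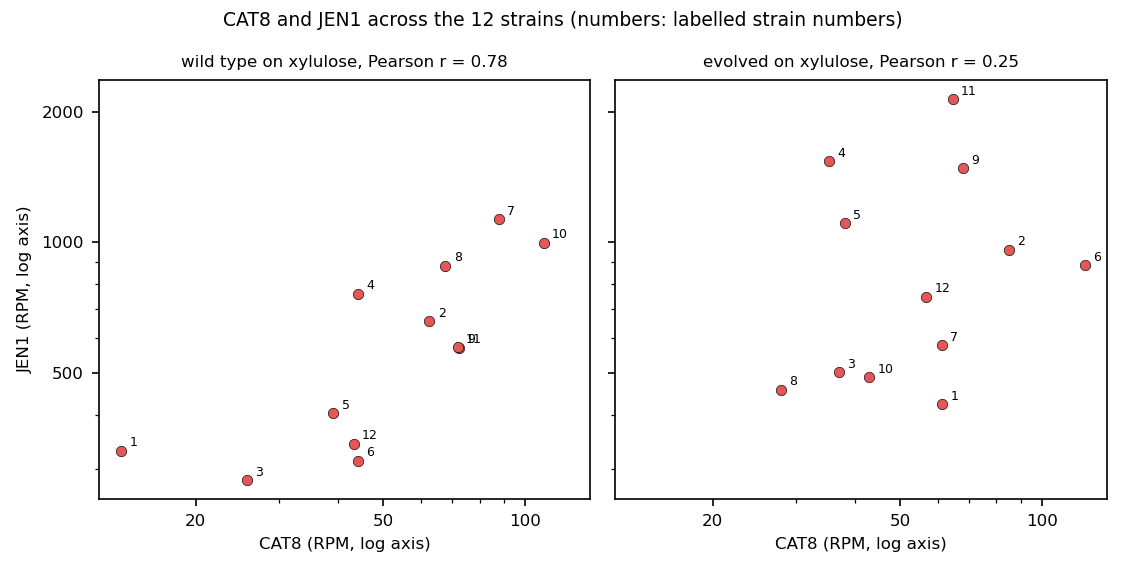
JEN1 against CAT8 in RPM (log axes) in the 12 wild type (left) and 12 evolved (right) columns on xylulose, each point numbered by its labelled strain. In the wild type strains 7 and 10 are high and strain 3 is low in both genes, and in the evolved columns the order differs.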

How the data were processed

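Libraries of 96 samples (12 strains, wild type and evolved, 2 media, 2 repeats) were made with poly(dT) selection and UMI-containing primers. According to the methods, the authors mapped 50 base reads to S288c (R64), with Bowtie named in the processing notes, removed rRNA reads, collapsed duplicates by UMI, scaled each library to 1000000 and averaged repeats. The deposited table holds log2 RPM of 6701 genes in 48 columns. The log2 scale and the floor of 10 RPM were read from the values, which sum to between 888352 and 1005807 once back-transformed. Blanks (26.3% of cells) were set to 10 RPM. The annotation matched 5953 gene names. Depth was read from low values lying within 0.004 RPM of whole multiples of a single step, which held in 17 columns, and is unknown in the other 31.

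The 5129 genes averaging 10 RPM or more were tested with limma 3.58.1 in R 4.3.3 on differences within each strain number, with eBayes and a variance trend over the mean log2 level of each gene. Adjusted p under 0.05 was the threshold. The script was tested on simulated data. There were 2 versions of the fit. The first used limma's default trend, over the mean difference. It was replaced after its counts over all genes had been seen, because a mean difference is not a level, and is kept as an alternative. Correlations used 100000 permutations (2-sided).

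The strain number paired the columns because same-numbered samples are labelled as the same strain. Their deviations from the group means had a correlation over 0.1 in 7 (wild type) and 10 (evolved) of 12 numbers between media, and in 2 (glucose) and 3 (xylulose) of 12 between wild type and evolved. Alternatives were median-of-ratios scaling, no filter or one at 50 RPM, pseudocounts (1, 10 or 30), no pairing, exchanged numbers and leaving out each strain. Added after the data were seen were blanks left missing, exchanged numbers with that scaling, and the default trend with either numbering.

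The members, gene lists, exchanged numbers and promoter window were chosen with earlier results of these data known. Genes named are the members, up to 2 that rose and 2 that fell most per list and comparison among those passing, and the 3 genes most like each member. HXK2 was added after its values were seen.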

Additional observations from a re-analysis of the deposited data

Results flagged for a closer look

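The xylulose/glucose ratio differed between wild type and evolved strains by limma's test of the change itself for a few of the genes named. Among the members this held for DLD1 alone, at 0.80 on the log2 scale, with the exchanged strain numbers, which were known from earlier results (limma adjusted p = 0.0101). As labelled it missed the threshold at 0.0781 and passed without strain 10, at 0.98 and 0.0211. With the labelled numbers it held for the listed genes NRG2 at -1.34, YAT2 at -1.22, SPS19 at -1.35, and, among the phosphate genes, most strongly for PHO12 at -5.20 and PHM6 at -4.81. Whether the calls of these listed genes depend on the variance trend or the scaling was not examined. On xylulose PHM6 had no value in the 24 columns.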

How the results depend on the processing

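The number of members passing for evolved/wild type on xylulose was 0, and became 1 with exchanged numbers and 2 (JEN1 and DLD1) with exchanged numbers and median-of-ratios scaling. For the change of ratio it became 1 (DLD1) in both, and ran from 0 to 1 when each strain was left out. With the default variance trend it was 0 in all 3 tests under both numberings, while the genes passing fell from 44 to 0, 114 to 47 and 279 to 169, so the calls of JEN1 and DLD1 depend on the trend chosen. Without the pairing (no replicate block) 0 members passed in these 3, with adjusted p of 0.334 for JEN1 on xylulose and 0.197 for the DLD1 ratio.

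Some values changed sign, and none passed the threshold where it did so. With blanks left missing these were SUC2 (0.218) and HAP4 (-0.004) for evolved/wild type on glucose, and the xylulose/glucose ratios of ADR1 in the wild type (-0.167, against 0.475, and passing at 2.175 and 0.786 with pseudocounts of 1 and 10, adjusted p = 0.0278 and 0.0402) and MIG1 after evolution (-0.031). The latter was -0.041 with median-of-ratios scaling under either numbering, and the change of the JEN1 ratio was -0.018 with a pseudocount of 1. HAP4 with DLD1 in the wild type turned to -0.224 as Spearman rho, -0.030 with that scaling and -0.335 without the 2 farthest strains. Leaving out each strain gave ranges of -0.099 to 0.501 (CYB2) and -0.082 to 0.236 (CAT8) for evolved/wild type on xylulose, and -0.511 to 0.218 (SUC2) and -0.231 to 0.329 (HAP4) on glucose. For the change of ratio it gave -0.280 to 0.269 (MIG2) and -0.141 to 0.439 (HAP4), and for the ratio of MIG1 after evolution -0.031 to 0.136. For HAP4 with DLD1 in the wild type it gave -0.146 to 0.143, and for MIG1 with SUC2 after evolution -0.344 to 0.083. At the median depth the floor stands for 6.81 reads, which limits MIG1, MIG2, CAT8, ADR1 and ADY2.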
